A study of Homo sapiens with 4 samples.

Results

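The genes described here are 38 markers of urothelial lineage and of bladder cancer subtypes, chosen by name among the 60623 genes of a transcriptome table, and all 38 were found. They comprise 7 luminal and umbrella-cell markers, 8 transcription factors of urothelium and other epithelia, 5 simple-epithelial markers, 5 basal markers, 7 markers of stratification and squamous differentiation, 2 other keratins and 4 desmosomal cadherins. RNA came from T24, a human bladder cancer cell line grown in RPMI medium with fetal calf serum. There were 2 libraries of control T24 cells and 2 of T24 cells overexpressing CBX7 (CBX7 cells), a chromodomain subunit of Polycomb repressive complex 1, from a FLAG-tagged expression vector into which the full-length gene had been cloned. The labels do not say what the control cells carry, and nothing states that the libraries of a group came from separate cultures, so p-values measure the spread between these samples, which may be technical.

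The urothelium that lines the bladder is a layered epithelium. Basal cells carry the keratins KRT5 and KRT14 and the transcription factor TP63, and the umbrella cells at the surface carry KRT20 and the uroplakins, membrane proteins that form the plaques of the apical surface. GATA3, FOXA1 and PPARG are transcription factors of luminal urothelial differentiation, KRT7, KRT8, KRT18 and KRT19 are the keratins of simple and luminal epithelium, and bladder cancers are sorted into luminal and basal or squamous subtypes by genes of these kinds. Keratin filaments are built from a type I and a type II keratin, and desmosomes tie them to the cell surface through desmogleins and desmocollins.

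The 4 libraries held between 20800910 and 25135488 estimated counts, so that a gene with no count may still be present at up to 3 counts, which is 0.119 to 0.144 CPM (counts scaled to the library total) and covers counting error only. CBX7 matched the labels, with 10.9 and 9.67 CPM in the control libraries and 1774 and 1595 CPM in the CBX7 libraries, here and for all later CPM values scaled by TMM, edgeR's correction for library composition. It differed by 7.35 on the log2 scale (standard error 0.18, adjusted p = 0.000584 by the Benjamini-Hochberg method, edgeR's quasi-likelihood test), and the reads do not separate the introduced gene from the cell's own. The libraries differed in a trend with gene length. Over the 11077 genes that averaged 100 counts or more, the Spearman correlation between length and the log2 ratio of replicate 1 over replicate 2 was -0.70 in CBX7 cells and -0.49 in control cells, and that of CBX7 over control was -0.62 for replicate 1 and 0.04 for replicate 2, a description across genes, which are not independent replicates.

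T24 cells expressed simple-epithelial keratins at high levels and some luminal transcription factors, while umbrella-cell and squamous markers and most basal markers were at or near the limit of detection. Deposited TPM values, which are relative abundances scaled by transcript length and so can be set side by side between genes, were at least 1 in every library for 13 of the 38 markers. At the other end, 20 markers had at most 3 counts in every library, and 11 of these were at 0 in all 4. The detected markers were KRT7, KRT8, KRT18 and KRT19, the keratins KRT15, KRT80 and KRT81, the desmosomal cadherins DSG2, DSC2 and DSC3, and the transcription factors PPARG, FOXA1 and ELF3. EPCAM, an adhesion molecule of simple epithelia, had more than 3 counts in every library without reaching that TPM in all.

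**Figure D1:**
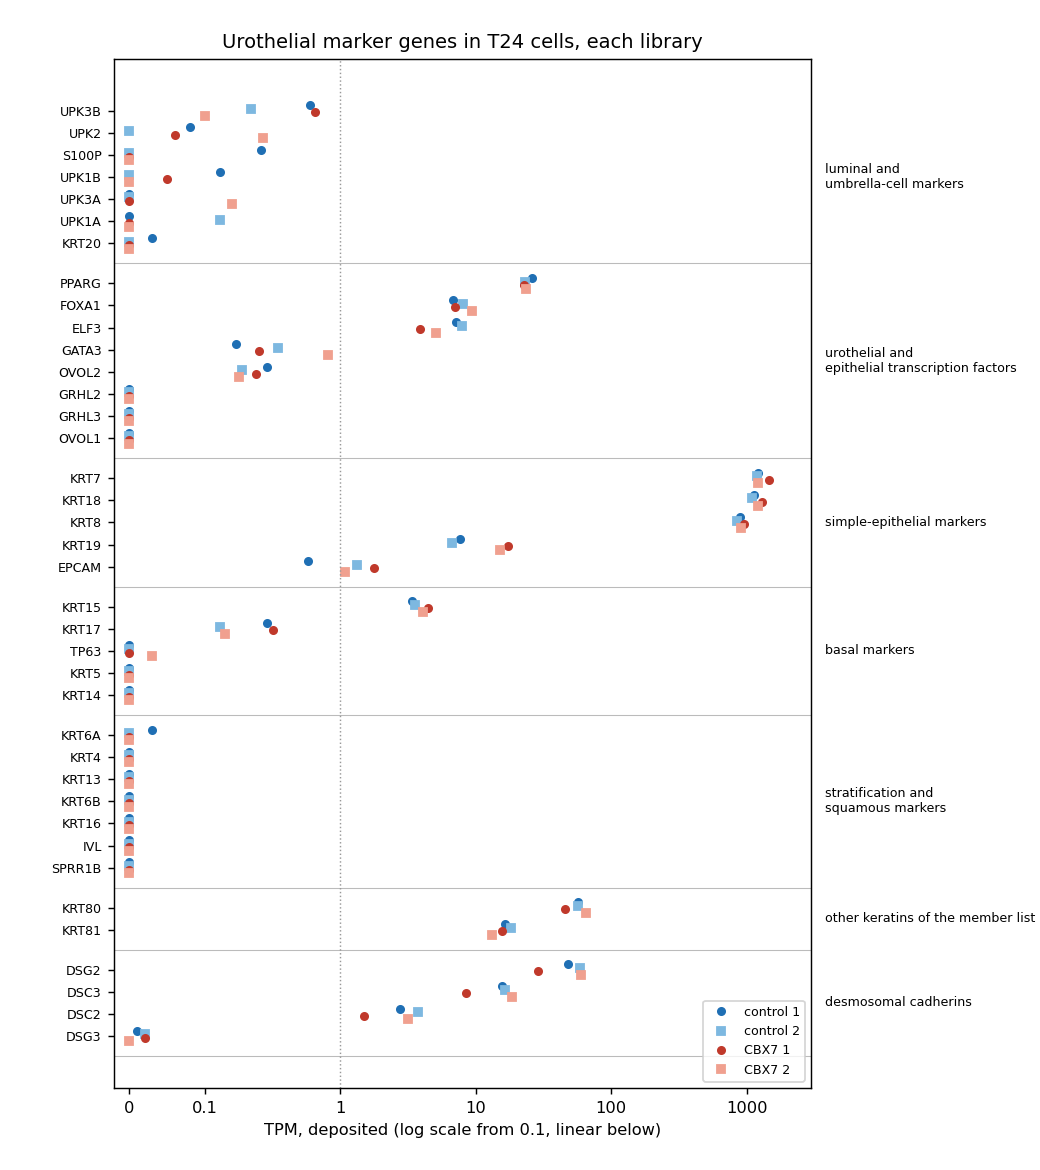
Deposited TPM of each of the 38 marker genes (x axis, logarithmic from 0.1 and linear below) in the 4 libraries, by gene group; circles are replicate 1 and squares replicate 2, blue for control and red for CBX7. KRT7, KRT8 and KRT18 lie between 853 and 1465 TPM, the dotted line marks 1 TPM, and 11 genes sit at 0 in all 4 libraries.

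Promoter sequence is shown for 4 markers because the detected and undetected members include neighbouring genes of a family (DSG2, DSG3 and DSC3) and KRT5, the defining basal keratin. The windows are RefSeq sequences of GRCh38.p14 that run from 250 bases before to 50 bases after an annotated start, 5′ to 3′ on the gene's strand, in lower case with each CpG dinucleotide in capitals. DSG2 (chr18:31497927-31498226, plus strand) and DSC3 (chr18:31042693-31042992, minus strand) were detected, while DSG3 (chr18:31447491-31447790, plus strand), whose annotated end lies 19340 bases before the start of DSG2, and KRT5 (chr12:52520345-52520644, minus strand) had at most 3 counts in every library.
DSG2: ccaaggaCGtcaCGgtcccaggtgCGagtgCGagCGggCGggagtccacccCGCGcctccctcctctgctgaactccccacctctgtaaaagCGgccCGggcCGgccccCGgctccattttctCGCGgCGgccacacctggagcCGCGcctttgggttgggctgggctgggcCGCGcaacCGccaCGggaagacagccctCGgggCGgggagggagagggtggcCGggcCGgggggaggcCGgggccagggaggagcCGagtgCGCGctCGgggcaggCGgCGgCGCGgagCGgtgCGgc
DSC3: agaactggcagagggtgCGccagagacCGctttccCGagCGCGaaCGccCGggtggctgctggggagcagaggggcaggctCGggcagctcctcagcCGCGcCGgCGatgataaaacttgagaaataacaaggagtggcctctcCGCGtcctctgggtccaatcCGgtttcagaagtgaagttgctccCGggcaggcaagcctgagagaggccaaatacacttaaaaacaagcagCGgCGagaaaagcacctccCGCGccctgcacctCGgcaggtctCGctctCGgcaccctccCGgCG
DSG3: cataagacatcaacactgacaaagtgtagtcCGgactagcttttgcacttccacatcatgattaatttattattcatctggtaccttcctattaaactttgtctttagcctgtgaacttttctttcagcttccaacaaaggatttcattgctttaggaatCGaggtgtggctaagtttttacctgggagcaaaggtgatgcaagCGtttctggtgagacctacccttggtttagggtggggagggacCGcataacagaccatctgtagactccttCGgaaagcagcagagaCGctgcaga
KRT5: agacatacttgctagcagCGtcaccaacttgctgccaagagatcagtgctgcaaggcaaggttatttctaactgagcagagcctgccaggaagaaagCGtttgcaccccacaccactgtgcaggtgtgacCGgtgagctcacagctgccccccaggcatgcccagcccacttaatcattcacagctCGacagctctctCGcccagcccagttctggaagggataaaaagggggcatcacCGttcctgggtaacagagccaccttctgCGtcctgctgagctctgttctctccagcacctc

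The DSG2 window held 36 CpG dinucleotides and the DSC3 window 25, against 6 in the DSG3 window and 7 in the KRT5 window. Over all 35116 windows of the same length the median was 14, and 12.7% held at least as many as DSG2. At most as many as in the DSG3 window were found in 36.8%. A window was given for 20 of the 38 markers. Taking the richest window of each gene, the 7 of them with more than 3 counts in every library held 2 to 36 CpG with a median of 22, and the other 13 held 0 to 36 with a median of 5, and GATA3, which has few counts, had a window as rich as that of DSG2. The 7 were KRT8 with 2, ELF3 with 7, PPARG with 10, DSC2 with 22, DSC3 with 25, FOXA1 with 34 and DSG2 with 36. KRT8, the poorest in CpG, had the highest mean TPM of the 7, at 900.1. Both strands were searched for 3 motifs. The GC box GGGCGG, which itself contains a CpG, was in the DSG2 window alone of the 4 shown and is in 45% of all windows. The TATA box TATAAA was in none of the 4 and is in 11.5% of all windows. The AP-1 motif TGACTCA was in none of the 4 and is in 4.95%. A match of letters is a description and not a binding site.

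The uroplakins and the other umbrella-cell markers were at the limit of detection. UPK1A, UPK1B and UPK2 each had at most 3 counts in any library, and UPK3A had 1 count in CBX7 replicate 2 and none elsewhere. UPK3B had 4.09 and 2 counts in the control libraries and 6 and 2 in the CBX7 libraries. KRT20, the keratin of umbrella cells, and S100P, a calcium-binding protein of luminal tumors, had 1 count each, both in control replicate 1. Summed over the 7 genes, TPM was 1.1 and 0.35 in control cells against 0.76 and 0.53 in CBX7 cells. All 7 were below the filter on low counts, and a difference between the groups was not detectable at this depth.

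Markers of the basal layer and of squamous differentiation were likewise near 0, with KRT15 the exception. KRT5 and KRT14, the keratin pair of basal cells, were at 0 in all 4 libraries. TP63, the basal transcription factor, had 2 counts in CBX7 replicate 2 and none in the others, and KRT17, a basal and stress-associated keratin, had 4 and 2 counts in control cells against 3 and 1 in CBX7 cells. KRT15, a type I keratin of basal layers, was at 3.38 and 3.55 TPM in control cells against 4.42 and 4.10 TPM in CBX7 cells. In TMM-scaled CPM the KRT15 groups overlapped, and the log2 fold change was 0.28 (standard error 0.28). Of the 7 stratification and squamous markers, KRT4, KRT13, KRT6B, KRT16, IVL (involucrin) and SPRR1B were at 0 throughout, and KRT6A had 1 count in control replicate 1. None of the 7 was tested.

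Simple keratins carried nearly the whole keratin pool. KRT7, a type II keratin of glandular and transitional epithelia (chromosome 12 of GRCh38, 52232520 to 52252186, plus strand), was at 1216 and 1197 TPM in control cells against 1465 and 1214 TPM in CBX7 cells. KRT8 (chromosome 12, 52897187 to 52949954, minus strand) was at 887 and 853 TPM in control cells against 954 and 906 TPM in CBX7 cells. Its type I partner KRT18 (chromosome 12, 52948871 to 52952901, plus strand) was at 1136 and 1092 TPM, and at 1293 and 1215 TPM, respectively. The 3 genes ranked between 126 and 168 among all genes by TPM in every library, and together they made up 95.6% to 96.2% of the summed TPM of 66 keratin genes, of which 14 to 16 had any count. The ratio of KRT8 to KRT18 in TPM was 0.781 in both control libraries and 0.738 and 0.746 in the CBX7 libraries. The annotated spans of KRT8 and KRT18 overlap by 1084 bases on opposite strands, and neither the labels nor the methods state that counting used strand, so reads there cannot be assigned to 1 of them. KRT7-AS, antisense within KRT7, had 177.6 to 247.9 counts. Processed pseudogenes of KRT8 had 72.05 to 124 counts in sum, a further place where reads can be shared.

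Between the groups, these 3 abundant keratins were not told apart. TMM-scaled KRT7 was at 1242 and 1173 CPM in control cells against 1761 and 1174 CPM in CBX7 cells, and KRT8 was at 1107 and 1020 CPM against 1413 and 1074 CPM. In both genes CBX7 replicate 1 alone was clearly above the control libraries, and CBX7 replicate 2 lay within their range. KRT18 was at 1037 and 957 CPM in control cells against 1402 and 1047 CPM in CBX7 cells, groups that did not overlap, although KRT18 in CBX7 replicate 2 was close to control replicate 1. The log2 fold changes were 0.28 for KRT7, 0.22 for KRT8 and 0.30 for KRT18, with standard errors of 0.21, 0.17 and 0.18. None passed the test.

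KRT19, the smallest type I keratin and a marker of luminal and simple epithelium (ENSG00000171345, chromosome 17, 41523617 to 41528308, minus strand), had the lowest p-value of the 15 markers tested. It had 156 and 120 counts in the control libraries and 446 and 285 in the CBX7 libraries, or 7.64 and 6.64 TPM against 17.3 and 15.1 TPM. On either scale the CBX7 libraries did not overlap the control libraries. The TMM-scaled mean was 6.13 ± 0.581 CPM (control, SD, n = 2) against 15.6 ± 4.04 CPM (CBX7, SD, n = 2), a log2 fold change of 1.35 (standard error 0.23). Over all 14862 genes tested the adjusted p was 0.352 (edgeR's quasi-likelihood test, unadjusted p = 0.00141), so that KRT19 did not pass. In bulk RNA, more cells with a transcript and more of it per cell cannot be told apart. It did pass with DESeq2's Wald test (adjusted p = 0.00361) and in edgeR when genes with low counts were kept (adjusted p = 4.16e-07). That edgeR fit set the spread of every gene wholly to the one estimated across genes, which the filtered fit did only in part. The share of KRT19 in the summed keratin TPM was 0.227% and 0.203% in control cells against 0.449% and 0.432% in CBX7 cells, still far below that of KRT18. Pseudogenes of KRT19 had 4 to 11 counts in sum. EPCAM had 16 and 26 counts in control cells against 44 and 23 in CBX7 cells, and its groups overlapped.

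**Figure D2:**
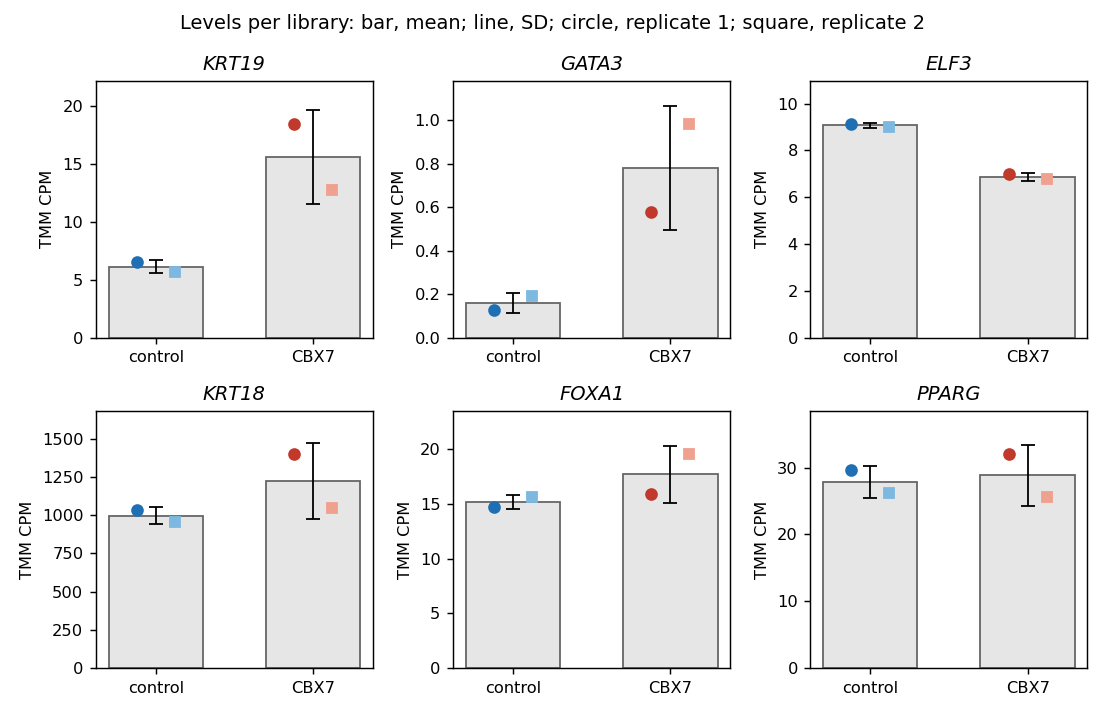
TMM-scaled CPM (y axes, linear from 0) of 6 marker genes in control and CBX7 cells; bars are means, lines the SD of 2 libraries, circles replicate 1 and squares replicate 2. KRT19 and GATA3 were higher and ELF3 lower in both CBX7 libraries, and PPARG overlapped between the groups.

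Transcription factors of the urothelium were split between a detected and an undetected set. PPARG, a nuclear receptor of luminal differentiation, was the most abundant by TPM, at 25.9 and 23.2 TPM in control cells against 22.8 and 23.6 TPM in CBX7 cells. FOXA1, a forkhead pioneer factor, had 351 and 328 counts, against 383 and 437. The grainyhead factors GRHL2 and GRHL3 and the zinc-finger factor OVOL1 were at 0 in all 4 libraries, and OVOL2, its paralog, had 3 or 4 counts in each. On the TMM scale PPARG differed by a log2 fold change of 0.05 (standard error 0.17), and FOXA1 by 0.22 (standard error 0.17). Neither passed the test. The FOXA1 groups did not overlap on the TMM scale but overlapped in deposited TPM.

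GATA3 (chromosome 10, 8045378 to 8075203, plus strand) had 3 and 4 counts in the control libraries and 14 and 22 in the CBX7 libraries. From the summed counts, 7 against 36, the ratio per total count was 4.85, with an exact 95% interval of 2.13 to 12.9 that covers counting error only. It was the single marker that reached the filter on low counts through the CBX7 libraries alone, so that it had to differ in order to be tested, and edgeR gave it a log2 fold change of 2.28 (standard error 0.56, adjusted p = 0.602). In deposited TPM the groups overlapped, with 0.17 and 0.35 in control cells against 0.25 and 0.82 in CBX7 cells. It was under 1 TPM in every library. ELF3, an ETS factor of epithelial differentiation (chromosome 1, 202007945 to 202017188, plus strand), lay the other way. It was at 7.22 and 7.98 TPM in control cells against 3.90 and 5.13 TPM in CBX7 cells. The TMM-scaled mean was 9.07 ± 0.0948 CPM (control, SD, n = 2) against 6.88 ± 0.169 CPM (CBX7, SD, n = 2), a log2 fold change of -0.40 (standard error 0.16, unadjusted p = 0.0492 and adjusted p = 0.951 in edgeR). The groups did not overlap, and ELF3 did not pass.

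Of the 4 desmosomal cadherins, 3 were detected. DSG2, the desmoglein of simple epithelia, was at 48.1 and 59.2 TPM in control cells against 29.1 and 59.5 TPM in CBX7 cells. DSC3, a desmocollin of stratified epithelium, was at 15.6 and 16.5 TPM against 8.45 and 18.6 TPM, and DSC2, the most widely expressed desmocollin, at 2.75 and 3.78 TPM against 1.49 and 3.15 TPM. In all 3 genes CBX7 replicate 1 was the lowest library. DSG3, a desmoglein of stratified epithelium, had at most 2.05 counts in any library. On the TMM scale the log2 fold changes were -0.21 for DSG2, -0.21 for DSC3 and -0.45 for DSC2, with standard errors of 0.25, 0.23 and 0.27. The groups overlapped for each, and none passed the test. KRT80, a type II keratin of many epithelia, was at 56.9 and 56.7 TPM in control cells against 45.7 and 64.9 TPM in CBX7 cells. KRT81, a hair-type keratin, was at 16.4 and 18.2 TPM and at 15.6 and 13.3 TPM, respectively. KRT81 has a close paralog, KRT86, with 13.08 to 39.21 counts, and reads shared between them make its value uncertain.

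Of the 15 markers with enough counts to be tested, 0 had an adjusted p under 0.05 in edgeR's quasi-likelihood test, where 0.0202% of all genes tested did. At an unadjusted p under 0.05 there were 3, where 4.74% of all genes tested reached that level. KRT19 and GATA3 were the 2 higher in CBX7 cells, against 3.42% of all genes, and ELF3 the 1 lower, against 1.32%. GATA3 had to differ to be tested, and without it 1 marker, KRT19, was higher. DESeq2's Wald test gave 1 marker with an adjusted p under 0.05, KRT19, against 0.451% of all genes. At an unadjusted p under 0.05 it gave 2, KRT19 and GATA3 (1 without GATA3), against 2.88%. With no filter on low counts edgeR gave 1, KRT19 again, of 27 markers tested, against 1.01% of all genes. The TMM-scaled groups did not overlap in 4 markers with higher levels in CBX7 cells (KRT19, GATA3, KRT18 and FOXA1), against 15.4% of all genes, and in 1 with lower levels, ELF3, against 14.8%. Without GATA3 the higher ones were 3. The other 12 markers had adjusted p-values of 0.951 or more in edgeR. For a single gene, 2 libraries against 2 allow no exact two-sided permutation p under 0.333, so that the test rests on a spread estimated across genes.

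**Figure D3:**
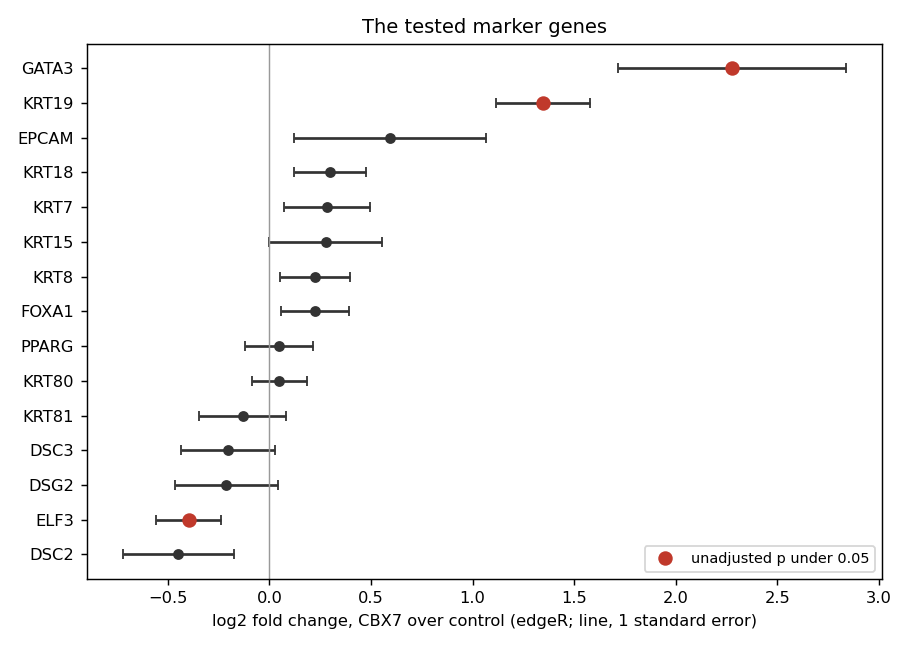
Log2 fold change of CBX7 over control cells (x axis) for the 15 tested marker genes in edgeR, with lines of 1 standard error; red marks an unadjusted p under 0.05. KRT19 (1.35) and GATA3 (2.28) lie to the right and ELF3 (-0.40) to the left, and no gene passed an adjusted p of 0.05.

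Both pairs of libraries differed along gene length, the CBX7 pair more than the control pair, and the markers followed that trend. All 8 tested markers shorter than 2500 bases were higher in CBX7 replicate 1 than in CBX7 replicate 2, and 6 of the 7 longer ones were lower, with ELF3 the exception. Across the 15 markers the Spearman correlation between length and the log2 ratio of the CBX7 libraries was -0.76, a description over genes that share the same libraries. The keratins KRT7, KRT8, KRT18 and KRT19 belong to the short genes, and the desmosomal cadherins to the long ones. When CBX7 replicate 2 was left out, 7 of the 15 markers had an adjusted p under 0.05 in edgeR (KRT7, KRT8, KRT18 and KRT19 higher, and DSG2, DSC2 and DSC3 lower), with CBX7 replicate 1 as the lone library of its group, and so did 36.8% of all genes tested. When CBX7 replicate 1 was left out, 2 did, KRT19 and GATA3 (1 without GATA3, which had to differ to be tested), against 2.61% of all genes. With a CBX7 library left out, the spread within groups came from the control pair alone. A marker that passed there was therefore not tested against the spread of the CBX7 pair. Over the fits that left out 1 library, the KRT19 log2 fold change ranged from 1.06 without CBX7 replicate 1 to 1.59 without CBX7 replicate 2. With the trend on length removed from every library, the KRT19 log2 fold change was 1.21 (adjusted p = 0.0764, edgeR). ELF3 ranged from -0.42 to -0.37 and GATA3 from 1.86 to 2.62 over the same fits. The median log2 fold change of the simple-epithelial markers, 0.30 with all libraries, was 0.077 without CBX7 replicate 1 and 0.54 without CBX7 replicate 2, and that of the desmosomal cadherins, -0.21, turned to 0.085 and went to -0.61, respectively. With the length trend removed, the medians were 0.17 for the simple-epithelial markers and -0.14 for the desmosomal cadherins, and the log2 fold changes were 0.16 for KRT7, 0.12 for KRT8, 0.17 for KRT18, -0.14 for DSG2, -0.28 for DSC2 and -0.09 for DSC3. Those of GATA3 (2.27) and ELF3 (-0.41) moved little, and no marker passed an adjusted p of 0.05 in that edgeR fit, against 0.0269% of all genes. At an unadjusted p under 0.05 it gave KRT19, GATA3 and ELF3 (2 without GATA3), against 6.82% of all genes.

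**Figure D4:**
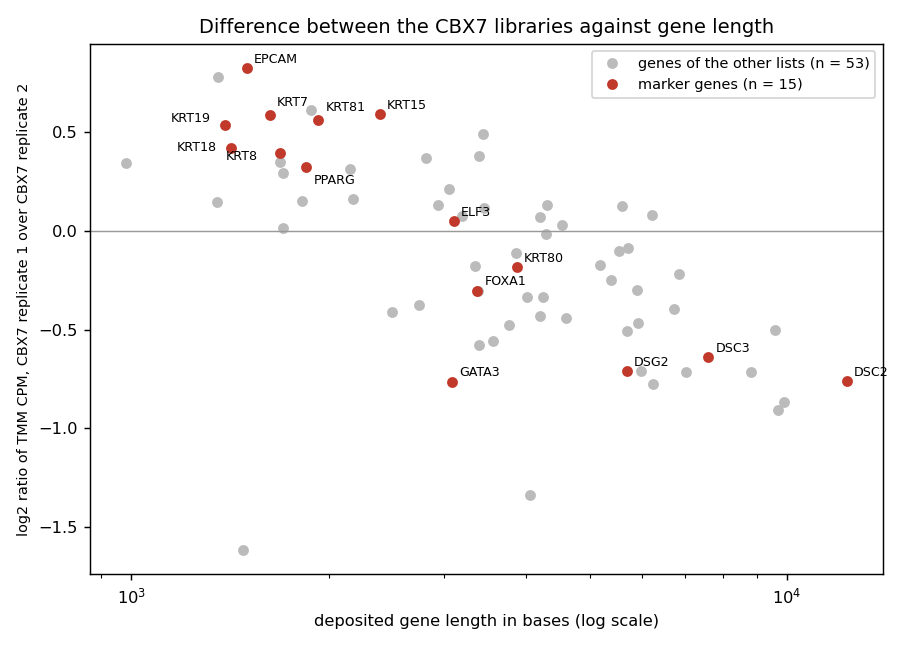
Log2 ratio of TMM-scaled CPM between CBX7 replicate 1 and CBX7 replicate 2 (y axis) against the deposited gene length in bases (x axis, logarithmic); red points are the 15 tested markers and grey points the tested genes of the other lists. Short keratins lie above 0 and the long desmosomal cadherins below it.

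Other genes of the same cell states were counted in lists of their own. None of these lists held a gene with an adjusted p under 0.05 in edgeR with the filter on low counts, all libraries and condition alone. Other settings are not given for these lists. Among 20 further luminal genes, 11 were tested, with a median log2 fold change of 0.01, and FGFR3 was higher at an unadjusted p under 0.05. Among 15 further basal genes, 10 were tested, with a median of 0.00 (0.00234), and ITGB4 was higher at that level. Of all genes tested, 3.42% were higher at that level, the share against which the counts of these lists are to be read. The median over all genes tested was 0.00 (0.001698), and that over the tested markers was 0.22 with GATA3 and 0.14 without it. ITGB4, the integrin subunit of hemidesmosomes, was at 3.56 and 3.05 CPM in control cells against 8.12 and 9.98 CPM in CBX7 cells (log2 fold change 1.45, adjusted p = 0.260, edgeR). In deposited TPM the groups overlapped for ITGB4, at 3.01 and 0.80 against 2.41 and 2.72, and for FGFR3, at 0.70 and 0.32 against 0.37 and 0.53, where the mean was lower in CBX7 cells. FGFR3 had 8 and 15 counts in control cells against 31 and 29 in CBX7 cells. It reached the filter on low counts only with the CBX7 libraries. Several basal-list genes that other cell types also express were abundant, CD44 at a mean of 533.5 TPM, LAMB3 at 252.4 TPM and EGFR at 59.0 TPM. Of 10 desmosomal plaque and other desmosomal genes, 6 were tested, with a median of 0.04, and JUP (plakoglobin) was higher at an unadjusted p under 0.05.

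Epithelial adhesion and splicing genes outside the marker list were also counted. Of 15 listed, 8 were tested, 4 were higher at an unadjusted p under 0.05, against 3.42% of all genes tested, and the median log2 fold change was 0.64. The list was chosen with earlier results of these data known, so that these counts are a description and not a test. SPINT1, an inhibitor of membrane serine proteases, had 219 and 144 counts in control cells against 455 and 364 in CBX7 cells, with a log2 fold change of 1.13 (adjusted p = 0.361, edgeR). SPINT2, of the same family, had a log2 fold change of 0.55, ESRP2, an epithelial splicing factor, 0.86, and the grainyhead factor GRHL1 0.73. ESRP1, named after its values were seen, had 12 and 2 counts in control cells against 14 and 18 in CBX7 cells. It reached the filter on low counts only with the CBX7 libraries. The TMM-scaled groups did not overlap in 5 of the 8 with higher levels, ESRP1 among them, against 15.4% of all genes, and in 2 with lower levels, against 14.8%. These 2, named after their values were seen, were KLF4 at -0.18 and the ETS factor EHF at -0.79, which had 43 and 35 counts in control cells against 12 and 34 in CBX7 cells, with CBX7 replicate 1 far the lowest, and overlapped in TPM. E-cadherin (CDH1), named after its values were seen, had 2 and 0 counts in control cells against 1 and 0 in CBX7 cells, so that the defining epithelial cadherin was at the limit of detection in both. Cornified envelope genes were mostly undetected: 12 of 17 were at 0 in every library, 3 were tested, and none was past an unadjusted p of 0.05.

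Mesenchymal genes were expressed beside the simple keratins. The 8 mesenchymal markers summed to 3544 and 3511 TPM in control cells against 2658 and 2769 TPM in CBX7 cells. The 5 simple-epithelial markers summed to 3248 and 3151 TPM, and to 3730 and 3351 TPM, respectively. By TPM the mesenchymal sum was the larger in both control libraries and the smaller in both CBX7 libraries, a difference that was not tested. Vimentin (VIM), the intermediate filament of mesenchymal cells, was at 2757 and 2726 TPM in control cells against 2206 and 2228 TPM in CBX7 cells, and on the TMM scale its groups overlapped. Fibronectin (FN1) was lower in both CBX7 libraries, with a log2 fold change of -1.03 and a standard error of 0.25 (unadjusted p = 0.00716 and adjusted p = 0.597, edgeR). Of all genes tested, 1.32% were lower at an unadjusted p under 0.05. SNAI1 was higher at that level, against 3.42% of all genes, with 11 and 3 counts in control cells against 24 and 22 in CBX7 cells. It reached the filter on low counts only with the CBX7 libraries. Of the 7 mesenchymal genes tested the median was -0.23.

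Markers of other bladder cell types were low in all libraries. The 7 fibroblast markers summed to between 2.31 and 6.54 TPM, with COL1A1 higher at an unadjusted p under 0.05 although its groups overlapped in TPM, and the 5 smooth muscle markers to between 5.76 and 6.71 TPM. The 4 endothelial markers summed to 0.20 to 0.34 TPM and the 6 neuroendocrine markers to 0.31 to 0.43 TPM. The 6 immune markers summed to 7.60 to 12.4 TPM, most of it CD68, a lysosomal protein that many cell types express. CD68 was lower at an unadjusted p under 0.05, against 1.32% of all genes tested. The pan-leukocyte gene PTPRC, named after its values were seen, had 1 count over the 4 libraries. The part of these cell types in the marker differences was not tested.

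**Figure D5:**
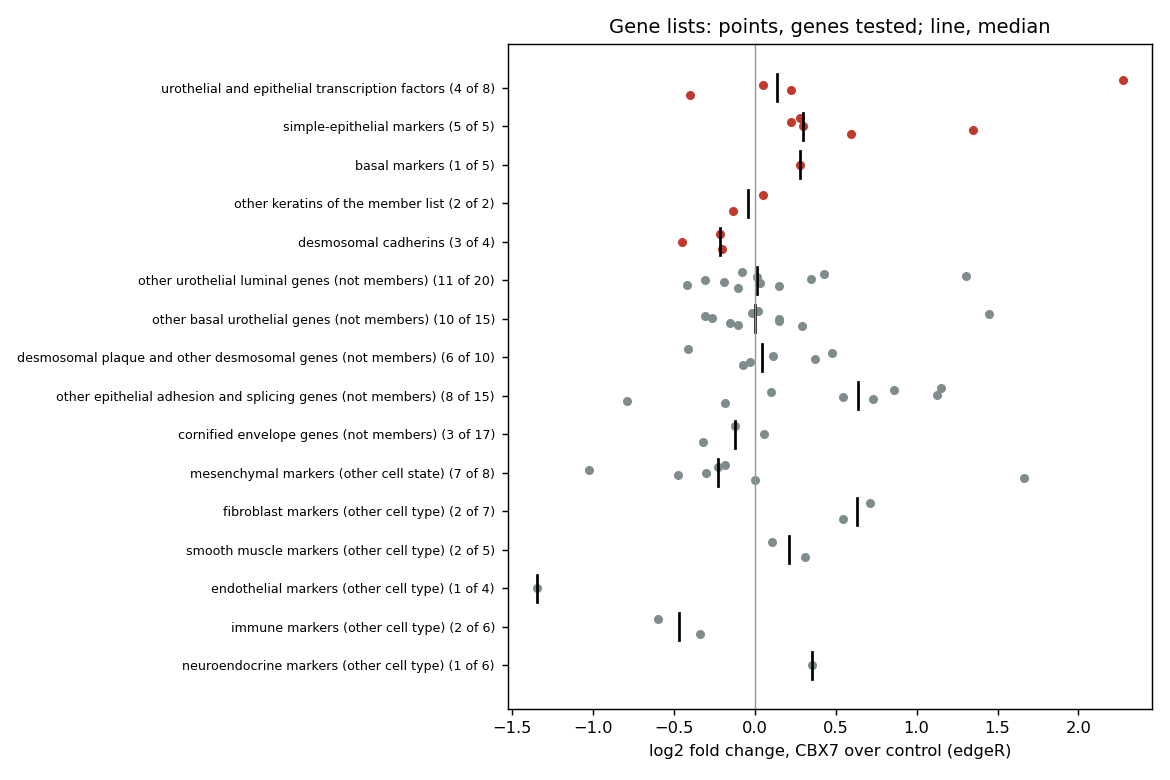
Log2 fold change of CBX7 over control cells (x axis, edgeR) for the tested genes of each list; points are genes, red for the markers and grey for the other lists, vertical lines are medians, and the numbers after each name give genes tested of genes listed. The simple-epithelial markers have a median of 0.30 and the desmosomal cadherins one of -0.21, and both moved with the CBX7 library left out.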

How the data were processed

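RNA-seq of 4 T24 libraries was used: control replicates 1 and 2 and CBX7 replicates 1 and 2. The authors deposited 1 table with an estimated count and a TPM value per gene and library, the TPM mean of each group as the authors' mean, and the gene length. With genes at 0 included, 88.2% to 88.9% of the counts were exactly whole as deposited, and of genes with a count 66.9% to 68.6% were. Submitters' processing notes name cutadapt 1.9.1, HISAT2 2.0.1, HTSeq 0.6.1, DESeq2 and hg19 without their roles, and counts that are not whole do not come from plain HTSeq counting. The table also holds the authors' own comparison of the groups as a fold ratio, its log2, a p-value and an adjusted p-value, deposited values that were not used here.

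Deposited counts were rounded, filtered by filterByExpr (min.count 10), scaled by TMM and tested by edgeR 4.0.16 (R 4.3.3) with glmQLFit and glmQLFTest at default settings, with no term but condition, and p-values adjusted by Benjamini-Hochberg over 14862 genes. Library totals were 23626206 and 20800910 (control) and 25135488 and 21961166 (CBX7). The chi-square per degree of freedom between libraries of a group was 4.54 (control) and 37.7 (CBX7), so neither pair was 1 library deposited more than once. Positions are from GENCODE release 29 on GRCh38, in which 58516 of 60623 identifiers (96.5%) were found, and need not be those of the authors' annotation. Alternatives were DESeq2 1.42.0, other normalizations and filters, the newer quasi-likelihood method, a loess correction for gene length, a replicate block and each replicate left out. The pipeline was tested on simulated data. Where both groups were at or under 3 counts no fold is given. Named genes are CBX7, the 38 markers, and genes of the other lists with a mean of at least 10 TPM or an unadjusted p under 0.05, to which CDH1, PTPRC, EHF, KLF4, ESRP1 and the read-sharing neighbours KRT7-AS and KRT86 were added after their values were seen. Markers and lists were chosen with earlier results of these data known.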

Additional observations from a re-analysis of the deposited data

How the results depend on the processing

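The number of markers with an adjusted p under 0.05, 0 in edgeR, was 1 with no filter, with DESeq2's Wald test and with the replicate block and length correction together (KRT19 each time), 2 with the replicate block (KRT19 and GATA3), 3 at an unadjusted p under 0.05, and 0 to 7 with 1 library left out. Over all genes, 3 became 265 with no filter, 67 with DESeq2's Wald test, 361 with the replicate block (2.43% of genes), 411 with the replicate block and length correction (2.77%), 705 at an unadjusted p under 0.05, and 37 to 5474 with 1 library left out, the highest without CBX7 replicate 2, where the lone CBX7 library is assumed to vary like the others. In edgeR, the fits with no filter, with the replicate block alone and with 1 library left out shared a further trait. They set the spread of every gene wholly to the one estimated across genes. In the main fit that estimate had 3.61 prior degrees of freedom, so each gene's own spread still counted. The labels do not say that replicate numbers mark a shared batch. Same-numbered libraries deviated together with a correlation of 0.305 over the genes tested and of 0.613 over those averaging 100 counts or more, and 2 pairs are too few to establish pairing, so the block values (KRT19 adjusted p = 2.2e-09, GATA3 adjusted p = 0.037, edgeR) stand only here.

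Of 134 marker log2 fold changes under alternatives with all libraries, 127 kept their direction and side of the threshold and 5 passed it. The 2 that reversed were PPARG, -0.04265 with the length correction and -0.04269 with the replicate block as well. With 1 library left out, 7 markers reversed in at least 1 fit, with ranges of -0.12 to 0.20 for PPARG, -0.03505 to 0.54 for KRT7, -0.04352 to 0.54 for KRT15, -0.04683 to 0.14 for KRT80, -0.43 to 0.12 for KRT81, -0.61 to 0.11 for DSG2 and -0.56 to 0.08533 for DSC3, and the other 8 kept 1 sign in every fit. The causes were not tested. The count of detected markers was 13 by TPM, 12 by TMM-scaled CPM per kb and 14 by counts. Depth limits the 23 markers that were not tested.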
